A study of Saccharomyces cerevisiae with 14 samples.

Results

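Cofilin binds and severs actin filaments, and its disordered N-terminal tail lies against actin in the bound state. LIM kinase 1 (LIMK1) switches cofilin off by phosphorylating Ser3 of that tail, so a change near Ser3 can bear on severing, on regulation, or on both. The variants described here are those of a human cofilin-1 tail library that carry Thr at position 4, in place of the native Gly4, and an aliphatic residue (Val, Ile, Leu or Met) at position 5, which is Val in human cofilin-1. Thr is bulkier than Gly, is branched at the beta carbon, and shares a hydroxyl group with Ser and its branched shape with Val.

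The members were taken from the names of the variants alone: of the 16000 variants, 160 had Thr4 and Val5, Ile5, Leu5 or Met5. They form 80 pairs that are identical except for Ser or Thr at position 3, with all 20 residues at position 2. Names give the residues at positions 2 to 5, so ASGV is the human tail and ASTV differs from it by Thr4 only. For comparison, the same backgrounds with Gly4, Ser4 or Val4 held 160 variants each.

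The library was expressed with an N-terminal His6 tag from a constitutive high-copy plasmid in Saccharomyces cerevisiae TeTO7-COF1, in which doxycycline (DOX) shuts off the endogenous COF1 gene, so that growth in DOX depends on the plasmid-borne human cofilin. All groups also carried a plasmid with full-length LIMK1 under the GAL1 promoter. The groups used were yeast in glucose before DOX (T-1), yeast after growth in raffinose with DOX (T0), and time points 1 to 3 (T1 to T3) in DOX with glucose, which represses LIMK1, or in DOX with galactose, which induces it. Each group held 1 library from each of 3 screens, 24 libraries in all, with 7185497 to 61265998 reads each (median 23863730). The screens were grown from frozen aliquots of transformed yeast, so p-values measure the spread between cultures and not between transformations. Galactose without LIMK1 was not among the groups, so the change of sugar and the kinase cannot be told apart.

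The coding sequences below place the members in the tail and show the pairs that the results turn on, read from the deposited tables, with the codons for positions 4 and 5 in capitals. The first 2 lines give the human tail and its Thr4 form from the start codon through position 15, with the constant part taken from the library oligonucleotide. Every residue had a single codon at each position, ACT for Thr4, and GTT, ATC, CTG and ATG for Val5, Ile5, Leu5 and Met5.
ASGV from the start codon: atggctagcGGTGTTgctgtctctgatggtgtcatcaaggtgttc
ASTV from the start codon: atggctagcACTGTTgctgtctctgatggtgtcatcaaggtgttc
ATTV (human tail with Thr3 and Thr4): gctaccACTGTT
RSTV (yeast Cof1 tail with Thr4): cgtagcACTGTT
RTTV (its Thr3 form, the widest difference within a pair): cgtaccACTGTT
WSTM (highest in glucose): tggagcACTATG
MTTM (highest in glucose with Thr3): atgaccACTATG
DSTL (lowest in glucose): gacagcACTCTG
LSTI (strongly lowered with LIMK1): ctgagcACTATC
LTTI (its Thr3 form): ctgaccACTATC
LSTM (fell where its Leu2 neighbours rose): ctgagcACTATG
PTTM (highest LIMK1 effect): ccgaccACTATG

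Members began somewhat above the average of the library, in which they make up 1.0% of the variants. At T-1 the lowest, median and highest member stood at 22.2, 82.3 and 178.6 reads per 1000000 (RPM) in screen 1, at 18.7, 80.3 and 237.1 RPM in screen 2 and at 22.6, 83.9 and 236.0 RPM in screen 3, where equal shares would give 62.5 RPM. Their summed share of reads was 1.44% ± 0.055 at T-1 and 1.17% ± 0.081 at T0 (mean ± SD over 3 screens). In glucose their summed share then stood at 2.22% ± 0.11, 2.14% ± 0.071 and 1.96% ± 0.025 at T1, T2 and T3. The corresponding shares in galactose were 2.12% ± 0.069, 1.87% ± 0.085 and 1.77% ± 0.070.

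Within this sum, reads in galactose passed from Ser3 to Thr3 members. Ser3 members held 42.9%, 40.2% and 41.0% of the members' reads at T-1 in screens 1, 2 and 3, and 27.0%, 26.2% and 29.0% at T3 in glucose. At T3 in galactose they held 4.36%, 5.70% and 5.35%. The 80 Thr3 members rose from 0.65% ± 0.075 of all reads at T0 to 1.42% ± 0.022 in glucose and 1.68% ± 0.075 in galactose at T3.

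From T-1 to T0, as COF1 was being repressed and before the media were split, 17 members rose and 85 fell in edgeR's quasi-likelihood test (adjusted p under 0.05, Benjamini-Hochberg over all 16000 variants), beside 24.2% of all variants that rose and 33.1% that fell. The members' median log2 change was -0.39 ± 0.16 (SD over 3 screens), against -0.11 ± 0.013 for all variants. Without screen 1, 8 members rose. The largest rise was that of DSTL, at 1.01 on the log2 scale, a variant that was then the lowest of all members in glucose. Both changes use the same T0 libraries, so they are not independent.

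In glucose, with LIMK1 repressed, the members divided evenly by their share of all reads. From T0 to T2, 69 members rose in relative abundance, 68 fell and 23 were not called, beside 20.9% of all variants that rose and 70.0% that fell. A rise or fall here is a change in the share of all reads, and when counts were scaled to the human tail ASGV none of the 160 rose and 136 fell. The median member changed by -0.03 ± 0.24 log2 units (SD over 3 screens), where the median of all variants was -4.06 ± 0.60. Of the 137 members called, 136 had the same sign in all 3 screens.

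The members' course was not monotonic. In glucose their median changed by 0.92 ± 0.22 from T0 to T1, by -0.85 ± 0.068 from T1 to T2 and by -0.25 ± 0.074 from T2 to T3, whereas the median over all variants was -2.17 ± 0.18, -1.63 ± 0.41 and -0.08 ± 0.12 in the same intervals. ATTV followed this course, with 100.9, 100.8 and 87.3 RPM at T0, 135.8, 163.4 and 184.8 at T1, 48.5, 75.1 and 61.7 at T2 and 48.0, 43.1 and 40.6 at T3 in screens 1 to 3. It was above its T0 level at T1 in every screen and below it at T2 in every screen, and its change from T0 to T2 was not called (-0.66 ± 0.40 SE, adjusted p = 0.108). From T1 to T3 in glucose, 23 members rose and 110 fell, beside 10.7% and 75.4% of all variants, and this majority turned under TMM scaling (61 rose and 48 fell) and with DESeq2 (67 and 42).

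With the human residues elsewhere in the tail, Thr4 was poorly maintained. ASGV stood at 65.0, 61.2 and 43.0 RPM at T0 and at 483.1, 609.1 and 430.0 RPM at T2. ASTV went from 133.6, 81.6 and 84.8 RPM to 3.33, 8.13 and 1.87 RPM, so that T0 and T2 levels did not overlap for either variant. ASGV rose by 3.18 ± 0.24 log2 units (SE, adjusted p = 8.94e-39, edgeR) and ASTV fell by 4.72 ± 0.61 (adjusted p = 2.47e-14). Met5, the residue of Arabidopsis cofilin at this position, stood with a smaller change: ASTM went from 36.3, 28.9 and 37.3 to 12.2, 25.3 and 22.6 RPM and was not called (-0.83 ± 0.65, adjusted p = 0.217). ATTM, which has both Thr3 and Met5, rose from 40.9, 67.4 and 39.6 to 121.9, 99.3 and 89.2 RPM (1.10 ± 0.42, adjusted p = 0.00924), and without screen 1 this rise was not called (0.87, adjusted p = 0.19).

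The tail of yeast Cof1 has Arg2, and its Thr4 form depended on position 3. RSTV went from 128.9, 77.3 and 95.9 RPM at T0 to 7.20, 4.73 and 1.70 RPM at T2, far below its start in every screen (-4.64 ± 0.59, adjusted p = 1.97e-14, edgeR). RTTV went from 40.1, 49.7 and 29.3 RPM to 156.3, 112.7 and 110.3 RPM and rose in every screen (1.69 ± 0.40, adjusted p = 2.8e-05). The Met5 forms stood higher: RSTM changed by 0.40 ± 0.69 and was not called (adjusted p = 0.58), and RTTM rose by 2.68 ± 0.31 (adjusted p = 1.23e-17).

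Position 2 separated the members most clearly among Ser3 variants. With the large hydrophobic residues Leu, Ile, Met, Phe, Trp or Tyr at position 2, a grouping made with the values known, 21 of 24 Ser3 members rose in glucose and 3 fell (LSTM, MSTV and ISTL). With the other 14 residues, 5 of 56 rose and 42 fell, and all 5 had Met5 (VSTM, PSTM, NSTM, QSTM and HSTM). The median change from T0 to T2 was 1.63 ± 0.27 for the first group and -3.04 ± 0.41 for the second (SD over 3 screens). The residues were grouped with these same values known, so the gap between the medians does not test the grouping. Over all variants, 20.9% rose and 70.0% fell. Among Thr3 members, 23 of 24 with a large hydrophobic residue rose, the exception being YTTL, and 20 of the other 56 rose while 23 fell. These medians were 2.02 ± 0.31 and -0.41 ± 0.073.

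WSTM showed the largest rise of any member. It stood at 21.6, 37.7 and 31.9 RPM at T0 and at 225.1, 168.3 and 256.6 RPM at T2, and its T0 and T2 levels did not overlap (2.85 ± 0.31, adjusted p = 8.27e-19, edgeR). MTTM, RTTM, ITTM and FSTM completed the 5 highest, at 2.74 ± 0.23, 2.68 ± 0.31, 2.68 ± 0.23 and 2.58 ± 0.24, and all 5 had Met5. The SEs of these values overlap, so they give no order. MTTM was also the most abundant member at T3 in galactose in every screen, at 1537, 1331 and 1345 RPM.

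An acidic residue at position 2 gave the lowest members. All 16 Asp2 and Glu2 members fell, beside 70.0% of all variants, with medians of -4.69 ± 0.78 for Ser3 and -4.75 ± 0.41 for Thr3. DSTL went from 94.5, 49.1 and 66.5 RPM at T0 to 1.32, 1.14 and 0.624 RPM at T2 (-6.08 ± 0.75, adjusted p = 1.6e-15, edgeR). DTTL, ETTL, DSTV and DTTV completed the 5 lowest, at -5.57 ± 0.68, -5.45 ± 0.73, -5.34 ± 0.81 and -5.27 ± 0.51. None of these 5 carried Met5, and DSTM and DTTM, which do, fell as well (-3.10 and -4.86).

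The remaining classes at position 2, apart from Pro2, had lower medians with Ser3 than with Thr3. The medians were -2.35 ± 0.098 and 0.27 ± 0.43 for Gly, Ala, Val and Cys, -2.93 ± 0.34 and 0.36 ± 0.037 for Ser, Thr, Asn and Gln, -3.61 ± 0.94 and -0.35 ± 0.22 for Lys and Arg, and -0.55 ± 0.21 and 0.65 ± 0.12 for His, with Ser3 and Thr3 respectively. Some of these Thr3 medians pooled unlike residues: with Lys2 none of 4 Thr3 members rose and 3 fell (median -1.71 ± 0.75), whereas with Arg2 3 rose and none fell (1.74 ± 0.28), and the medians were -1.62 ± 0.38 for Gly2 and 1.45 ± 0.23 for Val2. The Lys2 and Arg2 residues carry a positive charge, as does the native yeast tail at this position. Pro2 members were low with either residue at position 3, apart from Met5. Their medians were -2.42 ± 0.36 with Ser3 and -2.55 ± 0.38 with Thr3. PSTM nevertheless rose (1.01), and PTTM was not called (-0.11 ± 0.60, adjusted p = 0.866).

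LSTM and MSTV stood apart from their nearest relatives. LSTM was at 54.2, 45.6 and 47.0 RPM at T-1, at 17.6, 18.0 and 20.5 RPM at T0 and at 3.29, 2.50 and 1.67 RPM at T2, a fall in each interval of each screen (-2.96 ± 0.74, adjusted p = 7.34e-05). LSTV, LSTI and LSTL rose by 1.60, 2.18 and 2.41, and LTTM, which differs from LSTM at position 3 only, rose by 2.50. MSTV was at 24.8, 47.2 and 45.1 RPM at T0 and at 1.85, 2.82 and 24.7 RPM at T2, so that screen 3 lay far above the other two, while MSTI, MSTL and MSTM rose by 1.33, 2.14 and 1.81. Whether the plasmids of these 2 variants carried other changes was not tested.

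Met5 members had the highest median change in glucose among the aliphatic residues, 1.40 ± 0.19, against -0.47 ± 0.21 for Ile5, -1.24 ± 0.33 for Val5 and -1.65 ± 0.31 for Leu5. Met5 and Val5 were compared over 40 contexts that share positions 2, 3 and 4, as the difference in log2 change from T0 to T2 with 1 difference per screen (limma, adjusted over 2400 contexts). Met5 was higher in 31 contexts and lower in 1, beside 46.4% and 3.12% of the 800 contexts with any residue at position 4. The median difference was 1.75 ± 0.20 (SD over 3 screens), with 3.77 ± 0.92 among Ser3 and 1.05 ± 0.28 among Thr3 contexts, a contrast that was not itself tested. Without screen 1, 19 contexts were called higher. The widest gains were those of GSTM over GSTV (5.20 ± 0.56 SE, adjusted p = 0.00232) and HSTM over HSTV (5.10 ± 0.41, adjusted p = 0.00157), with the same sign in every screen. LSTM was the single context in which Met5 was called lower than Val5 (-4.56 ± 0.30, adjusted p = 0.00147).

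Ile5 and Val5 were called apart in few contexts. Ile5 was higher in 6 contexts and lower in 2, beside 26.2% and 6.38% of all 800 contexts, with a median difference of 0.23 ± 0.20. The 2 lower contexts were WTTI (-1.09 ± 0.26 SE, adjusted p = 0.0251) and YTTI (-0.83 ± 0.25, adjusted p = 0.0496), both of which still rose in glucose, and neither was called without screen 1 or without screen 2. MSTI over MSTV (4.22 ± 0.55, adjusted p = 0.00394) and HSTI over HSTV (2.57 ± 0.62, adjusted p = 0.0246) were the widest gains, the first of which rests on the low MSTV and the second of which was not called without screen 1 or without screen 2.

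Leu5 shifted in opposite directions with Ser3 and Thr3. It was higher than Val5 in 6 contexts and lower in 15, beside 11.0% and 23.1% of all 800 contexts. All 6 gains were Ser3 contexts and 14 of the 15 losses were Thr3 contexts, the exception being ISTL against ISTV, with medians of 0.90 ± 0.41 over 20 Ser3 and -1.94 ± 0.45 over 20 Thr3 contexts. The difference between these medians was not tested, and without screen 1 the losses numbered 8. ATTL against ATTV showed the widest loss (-3.21 ± 0.34 SE, adjusted p = 0.00224), followed by GTTL against GTTV (-2.94 ± 0.89, adjusted p = 0.0494), where screen 2 gave only -0.13 and the other screens -4.62 and -4.07. MSTL over MSTV (5.03 ± 0.63, adjusted p = 0.0035) and HSTL over HSTV (3.10 ± 0.59, adjusted p = 0.0119) were the widest gains, and the first again rests on the low MSTV.

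By calls, Met5 again stood highest and Leu5 lowest. With Met5, 26 of 40 members rose and 5 fell. With Val5, 17 rose and 21 fell, with Ile5, 16 rose and 18 fell, and with Leu5, 10 rose and 24 fell. Over all variants, 20.9% rose and 70.0% fell in the same interval.

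Thr4 was lower than Gly4 in most contexts. Over the 160 contexts, Thr4 was lower than Gly4 in 111 and higher in 2, beside 43.1% and 3.25% of the 800 contexts with any residue at positions 2 and 5, and the median difference was -2.67 ± 0.19. It was below 0 in all 3 screens in 141 contexts. The median was -4.24 ± 0.37 over Ser3 contexts and -1.82 ± 0.26 over Thr3 contexts, and the contrast between them was not tested. The median was -1.33 ± 0.16 over Met5 contexts and -4.49 ± 0.62 over Val5 contexts, a contrast that was not tested either.

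The widest losses had an acidic residue at position 2. DTGL stood at 63.7, 106.6 and 98.8 RPM at T0 and at 659.4, 500.5 and 636.9 RPM at T2, while DTTL fell from 91.3, 88.6 and 71.4 RPM to 2.06, 2.43 and 1.04 RPM (difference -8.34 ± 0.47 SE, adjusted p = 0.000186, limma). ESGM rose from 32.4, 39.8 and 42.0 RPM to 452.0, 445.0 and 484.2 RPM, while ESTM fell from 154.3, 113.4 and 143.0 RPM to 12.6, 6.53 and 2.39 RPM (difference -8.14 ± 0.53, adjusted p = 0.000186). Neither pair overlapped at T2. The 2 contexts in which Thr4 was higher were FSTL over FSGL (2.73 ± 0.57, adjusted p = 0.0118) and WSTL over WSGL (2.22 ± 0.45, adjusted p = 0.011), both aromatic at position 2 with Leu5. The first was not called without screen 2 and the second was not called without screen 1.

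Ser4, which differs from Thr4 by a methyl group, was closer. Thr4 was lower in 38 contexts and higher in 2, beside 10.6% and 7.50% of the 800 contexts tested, with a median difference of -0.45 ± 0.16. Without screen 1, 12 contexts were lower. LSTM against LSSM (-5.37 ± 0.56 SE, adjusted p = 0.000628) and SSTL against SSSL (-4.97 ± 0.46, adjusted p = 0.000406) were the widest losses. PTTV over PTSV (2.16 ± 0.44, adjusted p = 0.0113) and VTTV over VTSV (1.56 ± 0.41, adjusted p = 0.0302) were the 2 gains, and neither was called without screen 1.

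Val4, which replaces the hydroxyl group of Thr by a methyl group, gave a mixed picture. Thr4 was lower in 58 contexts and higher in 10, beside 22.6% and 6.75% of the 800 contexts tested, with a median difference of -0.44 ± 0.039, and without screen 1 these counts were 33 and 1. The loss lay with Ser3, where Thr4 was lower in 47 of 80 contexts and higher in 1 (median -2.13 ± 0.37), whereas with Thr3 it was lower in 11 and higher in 9 (median 0.26 ± 0.096). Whether the 2 medians differ was not tested. ASTL against ASVL (-6.45 ± 0.47 SE, adjusted p = 0.000205) and ASTV against ASVV (-5.95 ± 0.61, adjusted p = 0.000566) were the widest losses, both in the human Ala2 Ser3 background. VTTI over VTVI (2.80 ± 0.43, adjusted p = 0.00329) and HSTM over HSVM (2.40 ± 0.52, adjusted p = 0.0139) were the widest gains, the second of which was not called without screen 1.

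Among all 20 residues at position 4 with an aliphatic position 5, Thr4 ranked 14 of 20 by the median change in glucose. The medians next to it were 0.71 ± 0.20 for Val4 and -0.62 ± 0.12 for Gln4, and in each of the 3 screens Thr4 lay below Val4 and above Gln4. Gly4 was highest (2.76 ± 0.16) and Glu4 lowest (-3.70 ± 0.44). With Ser3 the rank of Thr4 was 15 (-1.68 ± 0.39), where Pro4 at -1.44 ± 0.11 and Gln4 at -2.01 ± 0.12 lay within its spread. With Thr3 its rank was 13 (0.90 ± 0.25), between Ser4 (1.29 ± 0.26) and Pro4 (0.64 ± 0.15).

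The choice between Ser and Thr at position 3 mattered for function of the members even without the kinase. In glucose the Thr3 form was higher in 37 of 80 pairs and lower in 4 (limma, adjusted over 8000 pairs), beside 18.4% and 7.34% of all pairs, and the median difference was 1.20 ± 0.12 (SD over 3 screens). Without screen 2, 22 pairs were called higher, and 1 or 2 pairs were called lower when any screen was left out. The medians by position 5 were 2.49 ± 0.45 for Val5, 1.53 ± 0.11 for Ile5, 1.02 ± 0.17 for Met5 and 0.11 ± 0.21 for Leu5.

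The widest pair was RTTV over RSTV, whose levels are given above (6.35 ± 0.55 SE, adjusted p = 0.00127). TTTV went from 59.6, 65.8 and 37.5 RPM to 115.0, 133.9 and 148.2 RPM and exceeded TSTV by 6.28 ± 0.68 (adjusted p = 0.00215). LTTM exceeded LSTM by 5.46 ± 0.43 (adjusted p = 0.00126), a pair that holds the exceptional LSTM. In the opposite direction, PTTL was lower than PSTL by -2.90 ± 0.36 (adjusted p = 0.00327), with the same sign in every screen. DTTM against DSTM (-1.77 ± 0.39, adjusted p = 0.0211) and YTTL against YSTL (-1.69 ± 0.42, adjusted p = 0.0317) were the other 2 named losses, and both calls were lost in at least 2 of the 3 fits that left out a screen.

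In galactose no Ser3 member held its share of all reads. Most Ser3 members also lost share in glucose, as did most variants of the library. From T1 to T3 in galactose all 80 Ser3 members fell and none rose, while 21 Thr3 members rose and 43 fell (edgeR). Over all members this made 21 that rose and 123 that fell, beside 9.72% and 80.1% of all variants. With edgeR's TMM scaling instead of total reads, 2 Ser3 members rose and 55 fell, and 49 Thr3 members rose and 11 fell. Among the 21 Thr3 members that rose, 11 had Met5, 5 had Val5 and 5 had Ile5, and no Leu5 member rose. LTTM rose most, from 274.7, 296.9 and 276.2 RPM at T1 to 944.4, 850.6 and 803.1 RPM at T3 (1.61 ± 0.11, adjusted p = 1.22e-47). From T1 to T3 in glucose, 6 of the 80 Ser3 members rose and 61 fell, and 17 Thr3 members rose and 49 fell. Of all variants, 10.7% rose and 75.4% fell in that interval.

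For the LIMK1 effect, the log2 change in glucose between T1 and T3 was subtracted from that in galactose, so that a value below 0 marks a variant lowered more with the kinase induced. It was below 0 for 36 members and above 0 for 3 (edgeR), beside 9.89% and 3.57% of all variants. Of the 36, 35 had Ser3. On the same backgrounds of 160 variants each, 83 with Gly4, 55 with Ser4 and 75 with Val4 were called below 0. Calls above 0 numbered 2, 0 and 16, respectively. Fewer than with Thr4 were called below 0 with Leu4 (22), Ile4 (25), Phe4 (15), Trp4 (18) and Pro4 (0). The same held for Asp4 (22), Glu4 (15), Lys4 (15) and Arg4 (24). By median effect from high to low, Thr4 ranked 11 among all residues at position 4 (-0.56 ± 0.43, SD over 3 screens). Whether these counts differ was not tested. The median over Ser3 members was -1.59 ± 0.57 and that over Thr3 members 0.15 ± 0.12 (SD over 3 screens).

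Ser3 members fell in galactose by similar amounts whether or not they rose in glucose, between -4.41 and -1.45 for the 26 that rose and between -4.85 and -1.52 for the other 54. All 26 Ser3 members that rose in glucose had a LIMK1 effect called below 0, between -4.34 and -1.97, with a median of -3.44. Of the 9 Ser3 members not called in glucose, 7 were also called below 0. The 26 calls held under TMM scaling, without the screen term and without any single screen, and 25 of them held with DESeq2. Of the 43 Thr3 members that rose in glucose, 40 were not called, and their effects ran from -0.71 to 0.59. GTTM was the only Thr3 member called below 0 (-0.71), and it was not called under TMM scaling or with DESeq2.

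WSTI had the lowest LIMK1 effect. It stood at 120.5, 113.2 and 118.5 RPM at T1 and 155.9, 133.4 and 152.5 RPM at T3 in glucose. In galactose it stood at 176.6, 96.3 and 161.0 RPM at T1 and at 6.86, 9.33 and 9.88 RPM at T3, a drop in every screen that glucose did not show (-4.34 ± 0.36, adjusted p = 2.02e-32, edgeR). LSTI went from 277.3, 335.7 and 343.1 RPM to 374.6, 446.0 and 498.9 RPM in glucose, and from 507.8, 486.6 and 557.9 RPM to 32.0, 50.6 and 37.3 RPM in galactose (-4.18 ± 0.21, adjusted p = 5.63e-85). MSTI, LSTV and WSTL were next, at -4.06 ± 0.31, -4.03 ± 0.30 and -4.03 ± 0.36. All 5 have Leu, Met or Trp at position 2, and the SEs of their effects overlap. ASGV, the human tail, had an effect of -3.11 ± 0.20 (adjusted p = 4.24e-53).

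The effects above 0 were those of 3 members with Thr3 and Met5. PTTM stood at 71.8, 65.0 and 79.9 RPM at T1 and 17.2, 22.2 and 11.7 RPM at T3 in glucose, against 69.0, 38.5 and 77.7 RPM and 53.4, 36.4 and 37.3 RPM in galactose (1.62 ± 0.53, adjusted p = 0.0191, edgeR). It fell less in galactose than in glucose in every screen. QTTM (0.55 ± 0.17, adjusted p = 0.0106) and FTTM (0.50 ± 0.17, adjusted p = 0.0239) had smaller effects. PTTM was not called without any single screen, nor were QTTM and FTTM without screen 1 or without screen 3.

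Ser3 members that fell in glucose had few reads and were mostly not called for the LIMK1 effect. Among the 45 Ser3 members that fell in glucose, 43 were not called for the LIMK1 effect and 2 were called below 0 (ISTL at -2.65 and VSTI at -1.79). Their median library at T3 in galactose held 21 reads and their median SE was 0.81 log2 units, against 330 reads and 0.31 for the 26 that rose. Whether these 43 lacked a call because of low counts or a small effect was not tested. ASTV (-0.84 ± 0.77, adjusted p = 0.5) and RSTV (-0.57 ± 0.78, adjusted p = 0.654) are among them. RSTM, which was not called in glucose, was lowered strongly: it went from 65.4, 25.1 and 37.1 RPM to 1.64, 2.41 and 1.55 RPM in galactose (-3.67 ± 0.69, adjusted p = 2.14e-06). It had 27, 90 and 19 reads at T3 in galactose.

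Within pairs, the LIMK1 effect was higher in the Thr3 than in the Ser3 form in 29 of 80 pairs and lower in none (limma), beside 9.40% and 0.237% of all 8000 pairs. The median difference was 1.46 ± 0.49, and it was above 0 in every screen in 57 pairs. No pair was called when any single screen was left out, whereas edgeR on the counts of both forms, an alternative chosen after seeing the data, called 36 higher and none lower. At an unadjusted p under 0.05, limma had 41 pairs higher and none lower. The gap between the forms was not particular to Thr4. With an aliphatic position 5, the Thr3 and Ser3 medians of the LIMK1 effect were 0.15 and -1.59 for Thr4. They were 0.09 and -3.59 for Gly4, 0.08 and -2.53 for Ser4, 0.41 and -2.19 for Val4, and 0.35 and -0.41 for Leu4. Whether these gaps differ was not tested. LTTI and LSTI show the pattern in their levels: LTTI rose from T1 to T3 in both media (0.95 in each), LSTI rose in glucose (0.46) and fell in galactose (-3.72), and the difference in LIMK1 effect was 4.18 ± 0.48 (SE, adjusted p = 0.0242).

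Thr4 was not shown to alter the LIMK1 effect relative to Gly4, Ser4 or Val4. Of the 160 contexts in each comparison, limma called none, beside 0% of all 2400 contexts in either direction. At an unadjusted p under 0.05 there were 53, 17 and 37 contexts, respectively. With edgeR on the counts of both forms, Thr4 had a higher effect than Gly4 in 35 contexts and a lower one in 8, with 4 and 1 against Ser4 and 6 and 13 against Val4. All 35 of the contexts higher than Gly4 had Ser3, and the median over all 80 Ser3 contexts there was 2.27 ± 0.58. The 54 Ser3 members that did not rise in glucose had a median of 29 reads per library at T3 in galactose, and the part of these low counts in the comparison with Gly4 was not tested.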

How the data were processed

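The authors recovered plasmids at each time point, amplified the variable region with barcoded primers, sequenced it and deposited raw counts of reads per variant. The program that assigned reads, and any use of molecular identifiers, are not given in the sources used here, so intervals cover counting and culture spread but not amplification. The counts of 24 libraries in 3 screens were used, and the starting plasmid library was not analysed here. Per the primer index the authors deposited, glucose and galactose libraries of a time point shared a sequencing file and were told apart by a primer barcode, and crossover between them was not tested. Members and lists were chosen with earlier results of these data known.

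Counts were tested with edgeR 4.0.16 (R 4.3.3) by quasi-likelihood, with library size set to total reads, no filter on low counts (every member had at least 10 reads in some library of each fit) and screen as a block, adjusted by Benjamini-Hochberg over 16000 variants. LIMK1 effects had each culture as a block. Differences between variants were taken as log2 of counts with 0.5 added, per 1000000 reads, once per screen, and tested with limma 3.58.1 over 8000 pairs or 2400 contexts. DESeq2 1.42.0 was an alternative. Group medians of changes are means ± SD over 3 screens, computed from log2 values with 0.5 added. Medians of differences between variants were taken over the mean differences of the screens. They are given with the SD of the 3 per-screen medians. The scripts were tested on simulated counts. The titles give each library a screen number, and the cultures of T1 to T3 descend from the T0 culture of that screen. Deviations from the group means correlated within screens by 0.312, 0.242 and 0.447 for glucose T1 and T3, and by 0.136, -0.0888 and -0.0411 for T0 and T2.

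The text names the Ala2 and Arg2 members with Val5 or Met5, the 5 highest and 5 lowest members that passed with the same sign in every screen for the glucose change and the LIMK1 effect, and the widest called differences in each direction at positions 3 (3 pairs), 4 and 5 (2 contexts). Other members named, such as MSTV, ISTL, GTTM and the Met5 forms beside them, were chosen after their values were seen.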

Additional observations from a re-analysis of the deposited data

Results flagged for a closer look

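The LIMK1 effect was higher in the Thr3 form than in the Ser3 form in 29 of 80 member pairs and lower in none (limma, adjusted p under 0.05), with a median difference of 1.46 ± 0.49 log2 units (SD over 3 screens) and the Thr3 form higher in 72 of 80 pairs. Over all 8000 pairs, 9.40% were higher and 0.237% lower, and no member pair was called when any single screen was left out. The difference between the 2 forms was itself the quantity tested. The medians of the forms lay further apart with Gly4, Ser4 or Val4 and closer with Leu4, as given above. The calls were 12 with Met5, 6 with Ile5, 6 with Leu5 and 5 with Val5, of 20 pairs each.

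In 23 pairs the forms moved in opposite directions from T1 to T3 in galactose, with the Thr3 form up and the Ser3 form down in every screen. That is 28.8% of the 80 member pairs, beside 10.2% of all 8000 pairs, which hold every residue at position 5. Of these 23, 13 had Met5, 5 had Val5, 5 had Ile5 and none had Leu5, and 16 had Leu, Ile, Met, Phe, Trp or Tyr at position 2. All 80 Ser3 members fell in galactose by total reads, so the count turns on which Thr3 members rose. With TMM scaling, 2 Ser3 members rose and 55 fell. Of all variants, 9.72% rose in galactose and 80.1% fell. With an aliphatic position 5, the Thr3 and Ser3 median changes in galactose were -0.616 and -3.855 for Thr4. They were 1.53 and -2.413 for Gly4, -0.4216 and -3.927 for Ser4, and -0.8911 and -3.272 for Val4. By the Thr3 median, Thr4 ranked 13 among all residues at position 4. How many pairs moved in opposite directions with each of those residues was not counted. The opposite movement was counted on each screen and was not tested as a difference in galactose alone. No group had more than 3 libraries, so no single library could be examined as an outlier.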

How the results depend on the processing

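Counts of called members followed the scaling. From T0 to T2 in glucose (69 up, 68 down), TMM gave 100 up and 23 down, DESeq2 117 up and 10 down, scaling to variants with a charged position 5 gave 123 up and 3 down, and scaling to ASGV 0 up and 136 down. These moved the median of all variants by 2.88, 4.00, 4.38 and -3.18 log2 units. In galactose from T1 to T3 (21 up, 123 down), TMM gave 51 and 66 and DESeq2 52 and 54. In glucose from T1 to T3 (23 up, 110 down), TMM gave 61 and 48 and DESeq2 67 and 42. The 3 LIMK1 effects above 0 became 1 with TMM and 16 with DESeq2. Under ASGV scaling, the named members that rose had changes of -2.08 (ATTM), -1.49 (RTTV), -0.50 (RTTM), -0.33 (WSTM), -0.44 (MTTM), -0.50 (ITTM), -0.60 (FSTM), -1.28 (WSTI), -0.99 (LSTI), -1.85 (MSTI), -1.58 (LSTV), -1.06 (WSTL), -0.89 (QTTM) and -1.57 (FTTM).

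Leaving out 1 screen gave 58 to 66 up and 57 to 70 down in glucose, 0 to 2 LIMK1 effects above 0 and 31 to 34 below, and 8 to 16 members up from T-1 to T0. Thr3 was above Ser3 in 22 to 30 pairs and below in 1 to 2 in glucose, and 0 to 0 pairs were called for the LIMK1 effect. Thr4 was higher than Gly4 in 1 to 2, than Ser4 in 0 to 2 and than Val4 in 1 to 8 contexts, and lower than Ser4 in 12 to 37 and than Val4 in 33 to 54. Met5 was higher than Val5 in 19 to 29, Ile5 higher in 3 to 6 and lower in 0 to 2, and Leu5 lower in 8 to 14.

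Without the replicate block for the pairing by screen, 70 members rose and 70 fell in glucose, 0 LIMK1 effects were above 0, 1 pair was lower in its Thr3 form, Thr4 was higher than Ser4 in 1 and than Val4 in 6 contexts, and Ile5 was lower than Val5 in 1. For LIMK1 effects of Thr4 contexts it gave 18 higher than Gly4, 1 higher than Ser4, and 1 higher and 4 lower than Val4. Adding 5 reads gave 33 higher than Gly4, 3 than Ser4, and 4 higher and 4 lower than Val4. EdgeR on both forms gave 35 and 8, 4 and 1, and 6 and 13, and 19 contexts with Thr4 higher than Val4 in glucose. The causes were not tested. With T-1 as the start, 61 members rose and 75 fell. Ser3 members that fell in glucose had a median of 21 reads at T3 in galactose, against 330 for those that rose.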
